A study of Mus musculus with 2 samples.

Results

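The late-numbered and Gm-named miRNA entries are the annotated mouse miRNA genes whose symbol begins with Gm, or whose miRNA number is 1000 or more. An entry was kept when 10 or more reads lay on its own strand in the 2 libraries together, and 108 entries met this among 2202 annotated miRNA genes. Left out were Gm25301, Mir3074-1, Mir3074-2 and the entries of the large imprinted miRNA cluster on chromosome 12. The summed reads chose the entries, so their levels are given as a description, with no test. The libraries are microRNA sequencing libraries of RNA below 30 nucleotides from adrenal glands of 2 female B6CASTF1/J mice aged 25 days. Mice of this kind are offspring of a cross between an inbred strain and wild-derived CAST. No treatment is named and both libraries form 1 group. The sample descriptions carry different animal numbers, yet 1 donor identifier serves both, so every ratio between libraries 1 and 2 holds animal, dissection, library preparation and sequencing together.

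A miRNA is usually cut from a hairpin by the Microprocessor, made of Drosha and Dgcr8, then trimmed by Dicer to a short RNA whose seed, bases 2 to 8, pairs with target messages. Some hairpins take another route. A mirtron is a short intron that splicing itself releases as a hairpin, and fragments of small nucleolar and Cajal body RNAs, which guide the modification of other RNAs, can also be cut by Dicer. High miRNA numbers mark entries registered late, mostly from deep sequencing, and a Gm symbol is a provisional gene name.

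Library 1 held 2244073 reads on the strand of miRNA genes and library 2 held 3912280. Levels are normalised read counts (CPM), the reads of an entry scaled to the same miRNA total in each library. Multimapped reads made up 28.4% of all reads in library 1 and 27.5% in library 2 and were not assigned to any gene. The 5 endocrine and neuroendocrine markers of the gland, led by Mir375, were all detected and held 4.27% and 4.40% of miRNA reads in libraries 1 and 2. Mir375 was nearly level (log2 ratio of library 2 over library 1 of 0.05). Mir137 (1.00), Mir7b (0.59), Mir182 (0.49) and Mir7-1 (0.44) were higher in library 2. The erythroid markers held 0.068% and 2.57%, the endothelial marker Mir126a 5.38% and 12.1%, and the hepatocyte marker Mir122 0.518% and 0.0491%. Within the erythroid list Mir451a (480 and 24242 CPM) and Mir144 (152 and 1451 CPM) were higher in library 2, while Mir486 was lower there (107 and 86 reads, log2 ratio -1.03). Mir486 lies opposite the entry Mir3107, and reads that match both equally are in neither count. The smooth muscle markers held 2.81% and 4.13%, with Mir143 higher in library 2 (log2 ratio 0.66) and Mir145a nearly level (-0.02). The leukocyte markers held 0.109% and 0.0913%. Within the leukocyte list Mir142 was higher in library 2 (199 and 337 CPM), and Mir150 (433 and 215 CPM) and Mir223 (116 and 25.0 CPM) were lower. Mir155 was nearly level (log2 ratio 0.06). The 5 striated muscle markers had 9 and 5 reads, with 4 of them at 0 in both libraries, and the 3 exocrine pancreas markers had 4 and 4. The part of these cell types in the ratios between libraries given further on was not tested, and in whole tissue fewer cells of a type cannot be told apart from less RNA per cell.

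The sequences that carry the main readings come first. Mature sequences are those of RefSeq (GRCm38.p6), found for 86 of the 108 entries, with the seed in capitals. Mature RNAs of 7 entries in small RNA genes are shown because they lie wholly inside the host RNA, with miR-1291, of a scarce entry, added for its place at the first base of the host. Gm49347 and Mir1949, also in such genes, are not shown.
miR-1839-5p: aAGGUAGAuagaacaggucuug
miR-3535: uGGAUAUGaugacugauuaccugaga
miR-1843a-5p: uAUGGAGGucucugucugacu
miR-1843b-5p: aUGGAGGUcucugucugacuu
miR-3068-5p: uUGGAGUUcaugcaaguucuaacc
miR-5121: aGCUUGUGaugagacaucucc
miR-1291: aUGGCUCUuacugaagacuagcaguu
miR-6516-5p: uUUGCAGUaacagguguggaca

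The entries that fill a whole intron are shown with the first and last bases of the intron in capitals, from GENCODE M21 transcripts.
Mir1981: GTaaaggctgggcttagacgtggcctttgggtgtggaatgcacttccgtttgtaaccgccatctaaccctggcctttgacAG
Mir3102: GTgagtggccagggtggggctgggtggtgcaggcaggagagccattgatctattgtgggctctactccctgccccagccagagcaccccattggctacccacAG
Mir3547: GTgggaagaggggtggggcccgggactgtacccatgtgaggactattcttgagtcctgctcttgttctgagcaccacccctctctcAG
Mir7018: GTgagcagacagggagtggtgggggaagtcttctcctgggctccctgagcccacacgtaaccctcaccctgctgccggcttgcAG
Mir1224: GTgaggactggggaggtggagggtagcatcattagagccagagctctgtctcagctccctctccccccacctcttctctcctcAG
Gm24589: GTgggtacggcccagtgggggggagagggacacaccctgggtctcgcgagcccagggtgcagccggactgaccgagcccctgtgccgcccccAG

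The 108 entries together held 14712 reads in library 1, which is 0.656% of its miRNA reads (95% Wilson interval 0.645 to 0.666%). In library 2 they held 18715 reads, or 0.478% (0.472 to 0.485%). The mean share was 0.567 ± 0.125% (SD, n = 2), and the intervals of the libraries do not overlap. Such intervals cover counting error within a library only, and leave out animal, dissection and library preparation. The reads also carry no molecular identifiers. Of 1656 entries that met the naming, 1260 had no read and 288 had 1 to 9 reads. A Gm symbol was carried by 1014 of the 1656 but by only 15 of the 108, and the other 93 of the 108 carry a number of 1000 or more. At 10 reads, just inside the limit, lay 8 entries, among them Gm27486 in an exon of Sbno1 with 2 and 8 reads in libraries 1 and 2. Gm38670 (5 and 5 reads) and Mir3970 (3 and 7 reads) lay there too. At 9 reads, just outside it, lay 8 more, among them Mir3060 (1 and 8 reads), Mir3082 (5 and 4 reads) and Gm47284 in a small nucleolar RNA gene (8 and 1 reads).

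Reads were concentrated in a few entries. Gm26117 alone held 25.6% of the entries' reads in library 1 and 26.8% in library 2, and Gm26117, Mir1839 and mmu-mir-3535 together held 56.3 ± 1.55% (SD, n = 2). Of the 108, 8 had 1000 or more reads, 22 had from 100 to under 1000 and 78 had under 100. By mean CPM Gm26117 ranked 62 among all 2202 miRNA genes, Mir1839 ranked 77 and mmu-mir-3535 ranked 100. With 10 or more reads asked in each library, 60 of the 108 were detected, against 277 of the 303 other miRNA genes with 10 or more reads summed.

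**Figure D1:**
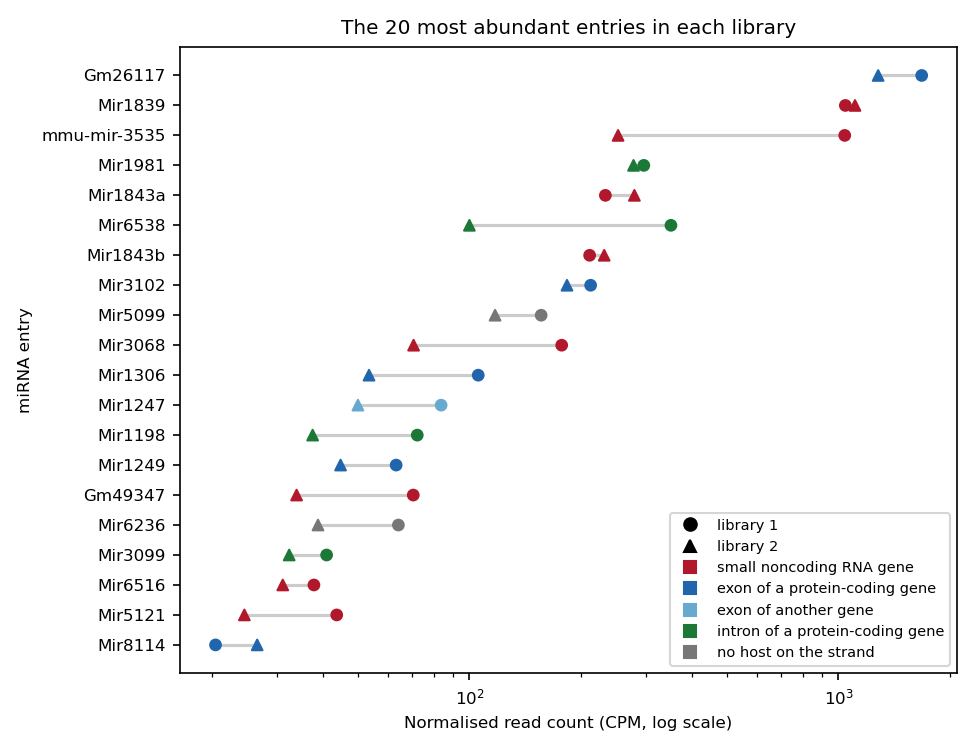
Normalised read count (CPM, log axis) of the 20 entries with the highest mean, 1 row per entry, with a circle for library 1, a triangle for library 2 and colour for the part of the host gene. Gm26117 lies highest in both libraries, and mmu-mir-3535 and Mir6538 have the widest gaps between circle and triangle.

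The entries were grouped by the part of a host gene they overlap on their own strand in GENCODE M21. Small noncoding RNA genes, here snoRNA and scaRNA genes, hosted 13 of 108 entries and 43.8 ± 0.753% of the entries' reads (SD, n = 2). Exons of protein-coding genes hosted 36 entries and 35.9 ± 1.48% of the reads (SD, n = 2). Introns of protein-coding genes hosted most entries, 38, but only 13.4 ± 0.858% of the reads (SD, n = 2). That narrow lead over exons did not hold under other settings. In unstranded counts each had 37, and with 50 or more reads summed introns had 9 and exons 11. With library 1 left out introns had 24 and exons 28, and with library 2 left out 16 and 22. No host on the strand was annotated for 18 entries with 5.45 ± 0.393% of the reads, and other genes hosted 1 entry in an exon and 2 in introns (SD, n = 2). The shares of the 4 larger groups kept the same order in both libraries.

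Among the 303 other genes, 2 (0.66%) lay in small noncoding RNA genes and 20 (6.60%) in exons of protein-coding genes, against 13 and 36 of the 108 (33.3% for the latter). Introns of protein-coding genes held 32.0% of the others and 35.2% of the 108. Exons of other genes went the other way, with 57 (18.8%) of the others and 1 (0.926%) of the 108. Introns of other genes held 6.93% and 1.85%, and no host was annotated for 35.0% and 16.7%. These shares are a description and were not tested. The share of entries meeting the naming that reached 10 reads also varied with the host. Of the 35 annotated entries in small noncoding RNA genes 37.1% reached 10 reads, of 203 in exons of protein-coding genes 17.7%, of 517 in their introns 7.35%, and of 781 without a host 2.30%. Of 76 in exons of other genes 1.32% did, and of 44 in introns of other genes 4.55%.

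**Figure D2:**
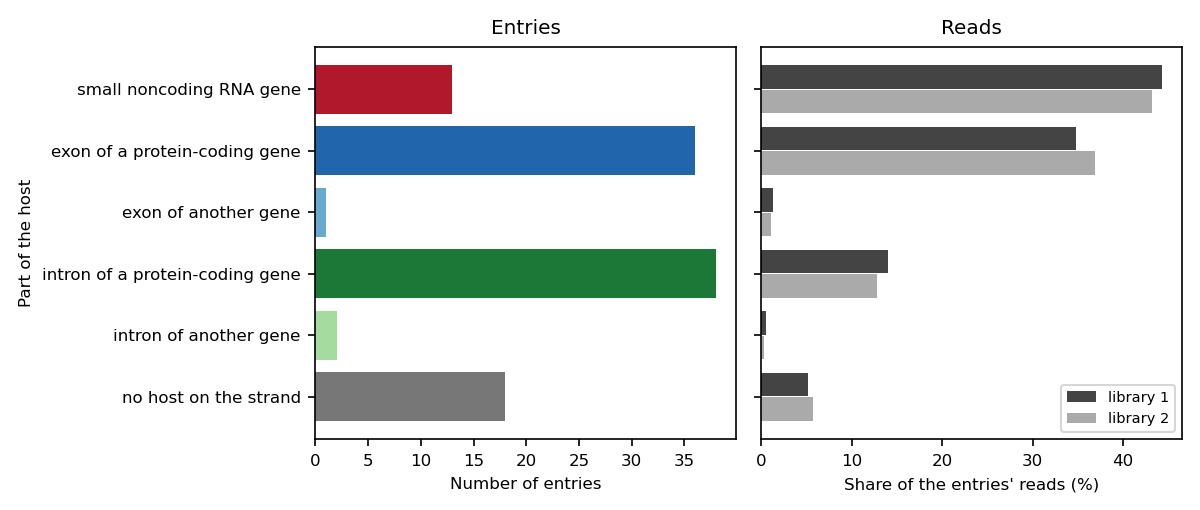
Number of entries (left) and share of the entries' reads in percent, in library 1 (dark) and library 2 (light) (right), by the part of the host gene. The 13 entries in small noncoding RNA genes take the largest share of reads. The 38 entries in introns of protein-coding genes are the most numerous, narrowly ahead of the 36 in their exons.

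In the small RNA genes, Mir1839 was the most abundant entry. It spans bases 81529916 to 81529988 of chromosome 7 (mm10, plus strand), overlapping a scaRNA gene annotated under the same symbol and running 7 bases past its 3′ end. It had 2343 reads in library 1 and 4338 in library 2. That is 1044 and 1109 CPM, a mean of 1076 ± 45.8 CPM (SD, n = 2), and the libraries lay close together. Its seed AGGUAGA shares the run AGGUAG with let-7g-5p, where it lies at bases 3 to 8 and here at bases 2 to 7. The seeds themselves are therefore different, offset by 1 base.

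Mir1843a and Mir1843b lie in Scarna3b and Scarna3a, paralogous Cajal body RNA genes on chromosomes 12 and 1. Mir1843a had 524 and 1095 reads (234 and 280 CPM) in libraries 1 and 2. Mir1843b had 475 and 907 reads (212 and 232 CPM). Both were slightly higher in library 2, and the gap is small beside that of mmu-mir-3535. The mature miR-1843a-5p and miR-1843b-5p share a run of 20 bases, from base 2 of the first and base 1 of the second, so the annotated seeds are offset by 1 base. Reads that match both places equally well are in neither count.

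mmu-mir-3535 spans bases 86351981 to 86352127 of chromosome 1 (minus strand), and its 147 bases take in the whole snoRNA gene Gm24148 of 80 bases, within the nucleolin gene Ncl. Nucleolin is an abundant nucleolar protein of ribosome production. The entry had 2334 reads in library 1 and 989 in library 2, or 1040 and 253 CPM, a clear gap to library 2. The mature miR-3535 begins at the first base of that snoRNA. It shares a 20-base stretch of its entry with an annotated rRNA gene, and reads that match both equally are not counted. Mir3068, in a snoRNA gene within the DNA demethylase gene Alkbh1, was likewise higher in library 1, with 399 and 276 reads (178 and 70.5 CPM). Gm49347 in Snora74a had 158 and 133 reads, and Mir5121 in Snord33, within the ribosomal protein gene Rpl13a, had 98 and 96. Mir6516, in a scaRNA gene within Snhg20, had 85 and 122 reads, and at 37.9 and 31.2 CPM its libraries were close.

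The place of the entry within the host RNA fell into few patterns. Of the 13 entries, 8 began 60 or more bases into the host and ended within 22 bases of its 3′ end, on either side: Mir1839, Mir1843a, Mir1843b, Mir3068, Gm49347, Mir6516, Mir1949 and Mir3069. Box H/ACA RNAs fold into a 5′ and a 3′ hairpin, and the ACA box follows the latter. At the 5′ end, miR-3535 and miR-1291 began at the first base of the host and miR-5121 started 2 bases in. Leaving out chromosome 18, all 14 mature sequences that RefSeq gives for these entries lay wholly in the host. The letters UGAUGA, the core of the C box of box C/D snoRNAs, were searched on the strand of the RNA. They occur in miR-3535 and miR-5121. In all they occur in 3 of 142 mature sequences of entries outside chromosome 18 (2.11%), and in 12 of 1738 RefSeq mature sequences (0.69%).

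In exons of protein-coding genes, Gm26117 was the most abundant entry of all. It spans bases 74563821 to 74563915 of chromosome 15 (plus strand), overlapping the 5′ UTR of an annotated transcript of Adgrb1, an adhesion G protein-coupled receptor. Another transcript of Adgrb1 puts the whole entry within an intron of 366 bases. Exons were matched first, so the entry counts with the exons. It had 3773 reads in library 1 and 5013 in library 2, which is 1681 and 1281 CPM, a mean of 1481 ± 283 CPM (SD, n = 2). Its 95 bases are 91.6% G or C, the highest of the 108, whose median was 56%. The median of the 303 other genes was 48.7% and their highest value 72.3%. No RefSeq mature sequence matched this entry, and the counts do not say which of the 95 bases gave the reads. Gm26117 shares 20-base stretches with transcripts of 11 genes elsewhere, among them Zmiz2 and Wac.

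The 36 exonic entries spread over every part of the message. By overlap with the transcripts of the host, 11 touched the 5′ UTR alone, 4 the 3′ UTR alone and 7 coding sequence alone. A further 8 touched both coding sequence and UTR, in the same transcript or in different ones. The other 6 touched only exons of transcripts with no coding sequence. Any overlap, however short, was enough, so part of an entry may lie outside the exon. The 11 in 5′ UTRs had a median GC content of 69.7%, with 5 of them at 70% or more, and the 4 in 3′ UTRs had a median of 51%. Of all 108 entries 14 reached 70% GC, against 2 of the 303 other genes.

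Mir1306 overlaps coding sequence of Dgcr8, the RNA-binding partner of Drosha whose own message carries hairpins that the Microprocessor cuts. It had 237 reads in library 1 and 209 in library 2, or 106 and 53.4 CPM, and was higher in library 1. Mir8114, which overlaps the 5′ UTR of the glutamine synthetase gene Glul, had 46 and 104 reads (20.5 and 26.6 CPM). Mir1249 lies in a retained-intron transcript of 5031439G07Rik and had 142 and 175 reads (63.3 and 44.7 CPM). Gm23450, which overlaps coding sequence of the calcium channel subunit gene Cacng8, matched the RefSeq mature miR-935 by position, so the Gm name there stands for a lower-numbered miRNA. It had 55 and 60 reads.

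Mir1247, the single entry in an exon of another gene, lies in Dio3os on chromosome 12 at bases 110278048 to 110278129. Dio3os is the antisense RNA of the imprinted deiodinase gene Dio3. Mir1247 had 188 and 195 reads, which is 83.8 and 49.8 CPM, and was higher in library 1.

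Entries that fit an intron exactly formed a class of their own. 6 of the 108 began at the first base and ended at the last base of an annotated intron of a protein-coding gene, and all 6 of the sequences shown above begin with GT and end with AG, the bases at the ends of most introns. Of the 303 other genes 1 had this fit, Mir877 in Abcf1, and of the 1548 named entries under 10 reads 14 did (0.904%). A further 11 of the 108 ended at the last base of the intron but began inside it, and all 11 end in AG. Both classes were chosen by the intron ends, so for most introns these end bases follow from the choice. The fit at the 3′ end alone was seen in none of the 303 other genes. It was seen in 174 (11.2%) of the named entries under 10 reads, beside 10.2% of the 108.

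**Figure D3:**
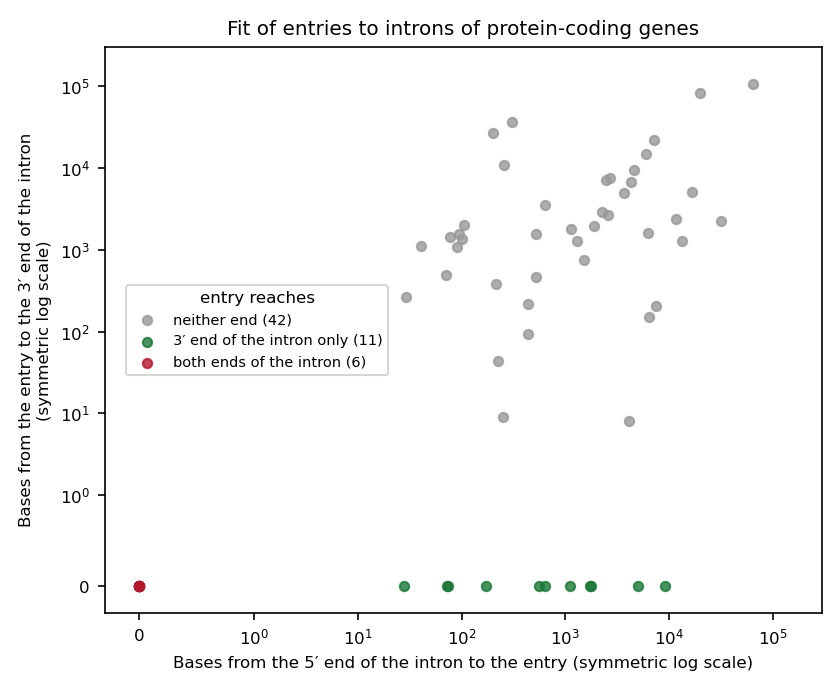
Distance in bases from the 5′ end of the intron to the entry (x axis) and from the entry to the 3′ end of the intron (y axis), both on symmetric log axes, for the entries that lie within an intron of a protein-coding gene in at least 1 transcript. The 6 entries at the origin, drawn on top of each other, fill the intron, and 11 lie on the x axis with no base left at the 3′ end.

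Mir1981 carried most reads of this class. It fills an intron of 82 bases in Marc2, a mitochondrial reductase gene, at bases 184822407 to 184822488 of chromosome 1. It had 666 reads in library 1 and 1089 in library 2, or 297 and 278 CPM, a mean of 288 ± 13.0 CPM (SD, n = 2). Mir3102 fills an intron of 104 bases in Arhgef17 at bases 100882306 to 100882409 of chromosome 7. It had 478 and 719 reads (213 and 184 CPM), and a retained-intron transcript puts it also in an exon. Both were nearly level between the libraries.

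The other 4 were scarce. Mir3547 in Baiap3, a gene of dense-core vesicle release, had 18 and 63 reads (8.02 and 16.1 CPM). Mir7018 in the perlecan gene Hspg2 had 9 and 9, Mir1224 in Vwa5b2 6 and 8, and Gm24589 in the polycystin gene Pkd1 6 and 6. The 11 entries at the 3′ end of an intron had 10 to 43 reads each, 70 in library 1 and 108 in library 2 in all, with Mir3097 in Rgs12 highest. A list of lower-numbered genes of intron-fitting or snoRNA source was set beside these. Of its genes, Mir877 had 136 and 70.5 CPM and Mir664 in the snoRNA gene Snora36b 57.9 and 50.9 CPM. Mir702, also listed, had 20.1 and 13.8 CPM, but by the annotation used here it lay in an exon of Plod3 and fitted no intron.

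Of the intronic entries without such a fit, Mir6538 was the most abundant. It lies in Rnf144a, a ubiquitin ligase gene on chromosome 12, 90 bases from the 5′ end of an intron of 1269 bases. It had 789 reads in library 1 and 391 in library 2, which is 352 and 99.9 CPM, a wide gap. Its mature sequence is rich in G and C, and the entry has 75.5% GC.
miR-6538: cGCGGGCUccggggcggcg
Mir1198 in Gripap1 on the X chromosome had 162 and 147 reads (72.2 and 37.6 CPM), and Mir3099 in the imprinted gene Usp29 had 92 and 127 (41.0 and 32.5 CPM). Mir1941, in an intron of the noncoding gene Gm35853, had 58 and 56 reads, or 25.8 and 14.3 CPM.

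Among the 18 entries with no host on the strand, Mir5099 led with 351 and 459 reads (156 and 117 CPM). Mir6236 followed with 144 and 152 reads (64.2 and 38.9 CPM) and Gm23935 with 25 and 124 (11.1 and 31.7 CPM). Gm23935 is shown because it shares 20-base stretches with 5 other Gm-named miRNA entries, and reads that match several of them equally are not counted.
Gm23935: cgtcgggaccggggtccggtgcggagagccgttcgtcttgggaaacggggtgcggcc
It spans chr16:11144125-11144181 (mm10, plus strand), opposite the protein-coding gene Zc3h7a. 2 entries of this group lie in tRNA genes of RefSeq, Mir1983 in an isoleucine tRNA gene with 53 and 80 reads and Gm44456 in a serine tRNA gene with 6 and 5. In all, 27 of the 108 (25.0%) share a stretch of 20 bases, on either strand, with a GENCODE transcript elsewhere, against 27.4% of the 303 other genes. By host, 11 of the 18 without a host and 7 of the 13 in small RNA genes do, and 2 of the 38 in introns of protein-coding genes. Stretches elsewhere in the genome that no GENCODE transcript covers were not searched. So for Gm26117, Mir6538, Gm23935, Mir6236 and Mir6240 a match to ribosomal precursor or repeat sequence there was not tested.

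Few annotated seeds were shared. Of the entries with a RefSeq mature sequence, 10 share a seed with another miRNA gene of 10 or more reads, over 9 seeds, and 1 of these seeds is shared between entries alone, Mir7689 and Mir5620. The most abundant of the 10 was Mir3102, which is shown with Mir702 because both sequences start with the same 8 bases.
miR-3102-5p: gUGAGUGGccaggguggggcug
miR-702-5p: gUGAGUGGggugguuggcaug
The largest partner was Mir674, with 15913 reads, whose 5p arm has the seed CACUGAG of miR-1947-3p, an entry of 37 reads. The counts are per gene, so which arm gave the reads is not known.

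How far the libraries differed was asked of each miRNA gene with 10 or more reads by an exact binomial test, conditional on the sum that chose the entries, with Benjamini-Hochberg adjustment over 411 genes. The test compares these 2 libraries and not conditions, and its only error is counting error. Of the 108 entries 31 passed an adjusted p of 0.05, against 58.4% of all 411 genes. With a fold of 1.5 or more as well, 25 of the 108 passed, against 31.4% of all genes. The shares were also read within ranges of reads. Among genes with 100 to under 1000 reads, 59.1% of 22 entries and 60.7% of 89 others passed, and among those under 100 reads 15.4% of 78 and 19.6% of 56. From 1000 reads up to the highest of the entries, 75% of 8 entries and 89% of 100 others passed. With the fold limit the order turned in the range of 100 to under 1000 reads, at 50% of the entries and 39.3% of the others.

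Of the 31, 19 were higher in library 1 and 12 in library 2, so 38.7% of these calls were higher in library 2. Over all 411 genes 119 (29%) passed with the higher level in library 1 and 121 (29.4%) in library 2. Of those calls 50.4% were higher in library 2. With the fold limit 16 entries were higher in library 1 and 9 in library 2, so 36% of these calls were higher in library 2. Over all 411 genes the counts were 67 (16.3%) and 62 (15.1%), with 48.1% of the calls higher in library 2. The split of the 31 depended on the scaling, with 23 and 10 under library size alone and 12 and 12 with no filter on low counts. So did the split at 1.5-fold, with 19 and 8 under library size alone and 8 and 9 with no filter. Over all tested genes the counts at 1.5-fold were 80 and 50 under library size alone and 43 and 85 with no filter. The median log2 ratio of library 2 over library 1 was -0.27 over the 108 and -0.07 over all 411. In small RNA genes 4 entries passed both limits, all with the higher level in library 1, and 3 more passed the adjusted p alone, all higher in library 2. In exons of protein-coding genes the counts at 1.5-fold were 3 and 3, in their introns 5 and 4, and without a host 2 and 2. The same counts by host were not made for the other genes.

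**Figure D4:**
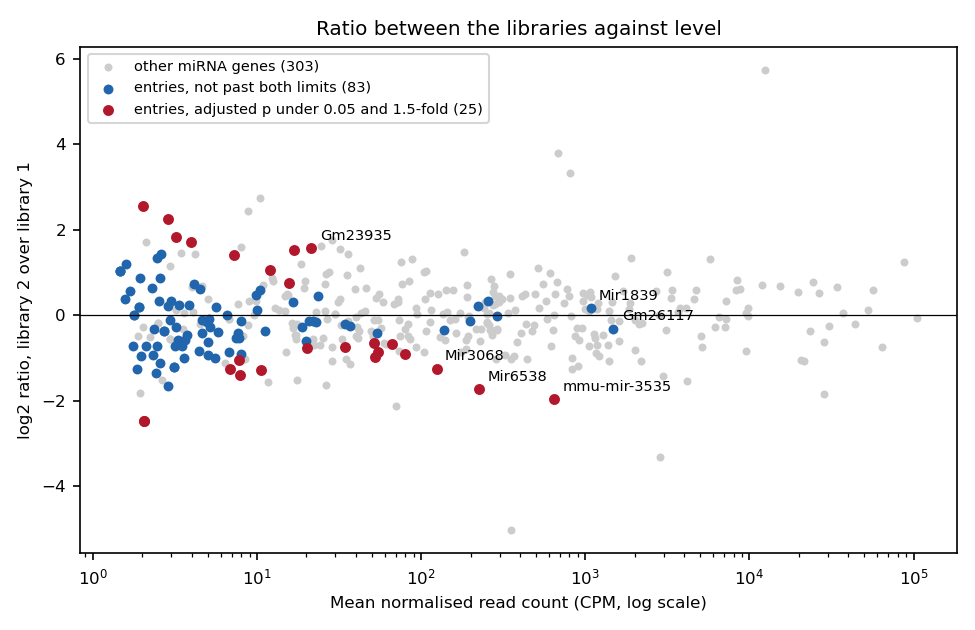
Log2 ratio of library 2 over library 1 against mean normalised read count (CPM, log axis) for 411 miRNA genes, with the 108 entries in colour and the other genes in grey. Red entries passed an adjusted p of 0.05 and 1.5-fold; mmu-mir-3535 and Mir6538 stand out below 0 among the abundant entries and Gm23935 above it.

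mmu-mir-3535 had the largest ratio among entries with 200 or more reads, 3.88-fold higher in library 1 (log2 ratio -1.95, SE 0.05 from counting, exact binomial adjusted p = 1.13e-311). Mir6538 was 3.31-fold higher in library 1 (log2 ratio -1.73, SE 0.09, exact binomial adjusted p = 2.85e-89). Mir3068 was 2.37-fold higher in library 1 (log2 ratio -1.25, SE 0.11, exact binomial adjusted p = 2.9e-28). Gm49347 (1.95-fold), Mir1306 (1.86-fold), Mir1198 (1.81-fold), Mir1247 (1.58-fold) and Mir6236 (1.56-fold) were also higher in library 1. All 8 entries with 200 or more reads that passed both limits were higher in library 1, and this count was not made for the other genes at that limit. In the test run on genes with 100 or more reads alone, 11 entries passed both limits with the higher level in library 1 and 3 in library 2. Over all 277 genes of that test the counts were 57 and 48. Mir6236 fell short of 1.5-fold with DESeq2 size factors (log2 ratio -0.57), and with no filter on low counts so did Mir6236 (-0.47) and Mir1247 (-0.50). Gm23935, with 149 reads, was 2.97-fold higher in library 2 (exact binomial adjusted p = 7.16e-08).

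The 2 entries with the most reads moved less. Gm26117 was 1.24-fold higher in library 1 and Mir1839 1.13-fold higher in library 2, and both passed the adjusted p but not the fold limit. For Mir1981 the log2 ratio was -0.01 (95% counting interval -0.15 to 0.13), and for Mir3102 it was -0.13 (-0.29 to 0.04). Over the 108 entries the median absolute log2 ratio was 0.63, and over the 303 other genes it was 0.48. Among the 8 entries with 1000 or more reads it was 0.26, with a median counting SE of 0.07, and among 100 other genes in the same range of reads it was 0.45. In the lower ranges the order turned, at 0.61 against 0.51 from 100 to under 1000 reads and 0.72 against 0.47 under 100. The median counting SE of the entries was also the larger there, at 0.23 against 0.17 and 0.67 against 0.53.

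On the strand opposite to the entries reads were rare except where another miRNA gene lies there. Mir3065 had 12 and 23 reads of its own, and the opposite strand had 642 and 899, the reads of Mir338 in Aatk. Mir3107 had 10 and 5 reads of its own, and the opposite strand had 107 and 86, the reads of Mir486, a miRNA of red blood cells. Sequence shared between Mir3107 and Mir486 was not searched, and reads that match both equally are in neither count. In the unstranded counts both entries and Mir3073a, which lies opposite Mir3073b, had 0 reads, since such reads were set aside as ambiguous. 6 other entries had 1 to 3 reads on the opposite strand in the 2 libraries together, and the other 100 had none.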

How the data were processed

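The build is mm10 per the labels, and the deposited notes name the annotation, GENCODE M21, which holds each of the 2202 identifiers. For each library the authors deposited raw read counts by miRNA gene, as 3 columns of counts without a header. The second column of counts, the larger of the stranded pair, was taken as the strand of the gene from its layout and values. Aligner, counter and trimming: not given in the sources used here. Unmapped reads (33.8% and 27.8%), reads mapped to several places and reads outside miRNA genes (9.57% and 9.53%) were left out of library sizes.

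Each entry was placed in the first part that matched: small noncoding RNA gene, exon of a protein-coding gene, exon of another gene, intron of a protein-coding gene, intron of another gene, no host. Ratios used edgeR 4.0.16 TMM effective library sizes and 0.5 read added to each count. A quasi-likelihood fit has nothing to test within 1 group, so each gene had a two-sided exact binomial test. Alternatives were DESeq2 1.42.0 size factors, library size alone, other read limits and unstranded counts. Mature sequences on chromosome 18 were left out. Sequences shared with transcripts within 1000 bases of an entry were ignored. Software was Python 3.11.15, scipy 1.17.1, statsmodels 0.14.6, matplotlib 3.10.9 and R 4.3.3.

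Named are the 20 entries with the highest mean CPM, those passing both limits with 200 or more reads, up to 3 per host part, 3 on each side of the read limit and those with 10 or more opposite-strand reads. Gm23450, Mir1983, Gm44456, the intron-fitting entries and those in sequence comparisons were chosen once their values had been seen. The members and lists were chosen with earlier results of these data known.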

Additional observations from a re-analysis of the deposited data

Results flagged for a closer look

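Opposite-strand reads enter none of the counts above. At 2 entries they were more than 3, the limit for a count of 0, in each library. At Mir3065 they numbered 642 in library 1 and 899 in library 2, which is 98.2% (95% Wilson interval 96.8 to 98.9%) and 97.5% (96.3 to 98.3%) of the reads on both strands. At Mir3107 they numbered 107 and 86, which is 91.5% (85.0 to 95.3%) and 94.5% (87.8 to 97.6%). Each number equals the count of the miRNA gene annotated on the opposite strand, Mir338 and Mir486.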

How the results depend on the processing

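No paired analysis was possible because both libraries belong to 1 group, and the test between libraries cannot be run with 1 library left out. The number of entries differing between libraries was 20 in place of 31 with 100 or more reads summed, and 14 in place of 25 at 1.5-fold, since 30 entries remained to test. With no filter on low counts these numbers were 24 and 17. The mean share of reads was 0.177% over all reads of the library and 0.419% without Gm26117, and from 0.478% to 0.656% with either library left out. With 5 or more reads summed, 58 entries lay in exons and 79 in introns of protein-coding genes. With 50 or more reads these were 11 and 9, with 1 in introns of other genes and 6 without a host. Introns of other genes held 1 entry in unstranded counts. With 1 library left out, exons of protein-coding genes held from 22 to 28, their introns from 16 to 24, introns of other genes from 1 to 2 and entries without a host from 10 to 14. Without entries that share 20 bases elsewhere, 6 remained in small RNA genes and 7 without a host. This alternative and the one without Gm26117 were chosen after seeing the data. The sign of Mir1981 turned with DESeq2 size factors (log2 ratio 0.057) and with no filter (0.16), as did that of Mir3102 with no filter (0.038). No filter shifted all log2 ratios by 0.17. Of the other 125 ratios recomputed for named entries, 118 kept their sign and their side of the adjusted p alone, 5 lost that call and 2 gained it. Among those 118, Mir6236 (-0.57 with DESeq2 size factors, -0.47 with no filter), Mir1247 (-0.50 with no filter) and Mir5121 (-0.58 with no filter) fell below 1.5-fold. Entries near 10 reads are limited by depth.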
